A study of Ovis aries with 6 samples.

Results

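The acyltransferases that make wax esters and triglycerides were followed in the skin of a fine wool and a coarse wool sheep breed. The genes were taken by name, and 6 of the 7 names looked for (AWAT1, AWAT2, DGAT2L6, DGAT1, DGAT2 and MOGAT1) were found among the 28394 genes of the files, whereas MOGAT2 was found under no row of that name and was not analysed here. Skin was taken behind the shoulder blade of 3 Super Merino (SM) ewes, labelled 128, 30034 and 30126, and of 3 Small Tail Han (STH) ewes, labelled XW3, XW5 and XW8. SM is a fine wool breed raised from Merino crosses and STH an indigenous breed with coarse wool. The sample records give an age of 9 months for all 6 sheep, while the methods of the study give a younger age. Polyadenylated RNA of each sheep was sequenced as its own library, and no sheep of one breed is paired with a sheep of the other. Where 3 values are listed for a breed, they stand in the order 128, 30034 and 30126 or in the order XW3, XW5 and XW8.

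Wool grease, or lanolin, is the secretion of the sebaceous glands that open into the wool follicle, and in the sheep it is made largely of esters of fatty acids with sterols and with long-chain alcohols. Acyltransferases of the endoplasmic reticulum join an activated fatty acid to an acceptor. When the acceptor is a fatty alcohol the product is a wax ester, when it is a monoacylglycerol the product is diacylglycerol, and when it is diacylglycerol the product is triglyceride. AWAT1 and AWAT2 are the acyl-CoA wax alcohol acyltransferases, and DGAT2L6 is a related protein of the same family, as are DGAT2 and MOGAT1. DGAT1 also makes triglyceride but belongs to a different protein family.

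The total counts of the libraries lay between 28870583 and 44645091, which puts 3 counts at 0.0672 to 0.104 CPM (counts scaled to the size of the library), a floor for counting error only. The 6 genes had between 66 and 4763 counts per sheep, so that all were far above that floor and all entered the test. Values below are CPM normalised by the TMM method of edgeR unless they are called RPKM, and all fold changes are SM over STH. The quasi-likelihood (QL) test of edgeR compared the breeds over 15320 genes, and to pass it a gene needed a Benjamini-Hochberg adjusted p below 0.05 together with a change of more than 1.5-fold. None of the 6 acyltransferases passed, and with this test on all 6 sheep 0% of all genes tested did. One library weighed heavily on that count, since without SM sheep 128 the same test called 1175 genes, DGAT2L6 among them (edgeR QL adjusted p = 0.0163). DGAT2L6 also passed without SM sheep 30034 (edgeR QL adjusted p = 0.0222) and without the filter on low counts (edgeR QL adjusted p = 0.0489). Before adjustment, p was under 0.05 for 2762 genes, with SM the higher breed for 7.21% of the genes tested and STH for 10.8%. Other tests called more, with 443 genes by DESeq2, 352 by the likelihood ratio test and 332 by the exact test of edgeR. Skin marker genes were present in every library, among them KRT5 of the basal epidermis at between 4670.3 and 8419 CPM.

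AWAT1, AWAT2 and the related gene DGAT2L6 lay together on the X chromosome of Oar_v4.0, within a stretch of 197784 bases. AWAT2 was on the minus strand from 59492400 to 59503955, DGAT2L6 on the plus strand from 59620107 to 59646677 and AWAT1 on the plus strand from 59680646 to 59690183. The other 3 genes were on autosomes, MOGAT1 on chromosome 2 from 223834679 to 223870269, DGAT1 on chromosome 9 from 13503494 to 13510935 and DGAT2 on chromosome 15 from 53242372 to 53265832, all on the plus strand. The files identify them by the gene numbers 101122414 (AWAT1), 101121241 (AWAT2), 101122168 (DGAT2L6), 100126245 (DGAT1), 101110535 (DGAT2) and 101116385 (MOGAT1). The exons behind the deposited values added up to 4673 bases for AWAT1, 2095 for AWAT2, 5602 for DGAT2L6, 2341 for DGAT2 and 6339 for MOGAT1. For DGAT1 they added up to only 828 bases, which is short for this gene and may be a partial model, and its RPKM, its rank per length and its share below all rest on that length.

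DGAT2L6 separated the breeds most clearly of the 6 genes. The SM sheep had 36.9, 23.6 and 49.0 CPM and the STH sheep 6.19, 8.43 and 6.35 CPM. The lowest SM sheep was 2.80 times the highest STH sheep, and the STH sheep lay much closer together than the SM sheep. Mean CPM was 36.5 ± 12.7 for SM and 6.99 ± 1.25 for STH (SD, n = 3 for each), a fold change of 5.21. On the log2 scale this was 2.38 with a standard error of 0.28 (edgeR QL adjusted p = 0.0853). By p it ranked 3 among the 15320 genes. A gap of this kind, with the lowest SM value over the highest STH value, was found for 12.3% of the genes tested. Among the 11662 genes with a mean of at least 5 CPM, 7 had a log2 fold change as large or larger, DGAT2L6 included. DGAT2L6 passed both thresholds by DESeq2 (adjusted p = 2.04e-12), by edgeR's likelihood ratio test (adjusted p = 4.20e-11) and by its exact test (adjusted p = 4.73e-11). These tests called 1.02% (DESeq2) and 0.868% (likelihood ratio test) of all genes as higher in SM sheep, and 1.87% and 1.43% as higher in STH sheep. With the newer dispersion estimate of edgeR its adjusted p was 0.0582, and 0% of all genes were called as higher in SM and 0.0131% as higher in STH sheep. Leaving out any 1 sheep gave a fold change between 4.36 and 6.08. In libraries of whole skin, fewer cells of a type and less RNA per cell cannot be told apart.

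AWAT1, whose product esterifies long-chain alcohols, was the most abundant of the 3 X-linked genes but was less clearly separated. Its values were 65.7, 34.0 and 121 CPM in the SM group against 21.9, 32.1 and 36.0 CPM in the STH group. SM sheep 30126 was far above the other 5 sheep, and SM sheep 30034 lay just below STH sheep XW8, so that the breeds overlapped. Mean CPM was 73.7 ± 44.2 for SM and 30.0 ± 7.28 for STH (SD, n = 3 for each). AWAT1 thus had a log2 fold change of 1.29 with a standard error of 0.41 (edgeR QL unadjusted p = 0.0119, adjusted p = 0.247). Without SM sheep 30126 it was 0.74, or 1.67-fold. Of the other tests, DESeq2 was the one in which AWAT1 passed, with an adjusted p of 0.0362, while the likelihood ratio test of edgeR gave an adjusted p of 0.0649.

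AWAT2, which esterifies fatty alcohols and also retinol, had 15.4, 4.47 and 17.7 CPM in the SM group. In the STH group it had 3.63, 9.00 and 2.18 CPM. Both breeds were split, with 30034 low among the SM sheep and XW5 high among the STH sheep, and these lay in the reverse order to the breed means of 12.5 ± 7.05 (SD, n = 3) and 4.94 ± 3.59 CPM (SD, n = 3). The log2 fold change of 1.33 was close to that of AWAT1, but with a standard error of 0.60 (edgeR QL adjusted p = 0.283). Without STH sheep XW5 it was 2.10 and without STH sheep XW8 0.98, and AWAT2 passed in none of the tests run.

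The diacylglycerol acyltransferases and MOGAT1 showed no difference of that size. DGAT2, the main triglyceride-forming enzyme of this family, was at 57.8, 72.4 and 109 CPM in the SM group against 60.0, 70.9 and 98.1 CPM in the STH group. Each breed thus held a low, a middle and a high sheep at nearly the same values. The difference was 0.06 in log2 with a standard error of 0.26 (edgeR QL adjusted p = 0.899), and its sign turned to -0.22 without SM sheep 30126 and to -0.08 without STH sheep XW3.

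DGAT1 was at 5.65, 5.38 and 3.39 CPM in the SM group against 5.51, 8.41 and 7.15 CPM in the STH group. It was the only one of the 6 genes whose lowest value was in SM sheep 30126, the sheep in which AWAT1, AWAT2, DGAT2L6 and DGAT2 were highest. Its log2 fold change came to -0.55 with a standard error of 0.28 (edgeR QL adjusted p = 0.314), with the breeds overlapping at STH sheep XW3.

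MOGAT1, which acylates monoacylglycerol to diacylglycerol, was at 6.05, 10.6 and 9.86 CPM in the SM group against 7.23, 13.5 and 8.14 CPM in the STH group. The values of the breeds were interleaved, and MOGAT1 had -0.12 in log2 with a standard error of 0.31 (edgeR QL adjusted p = 0.832). The sign turned to 0.09 without SM sheep 128 and to 0.20 without STH sheep XW5.

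**Figure D1:**
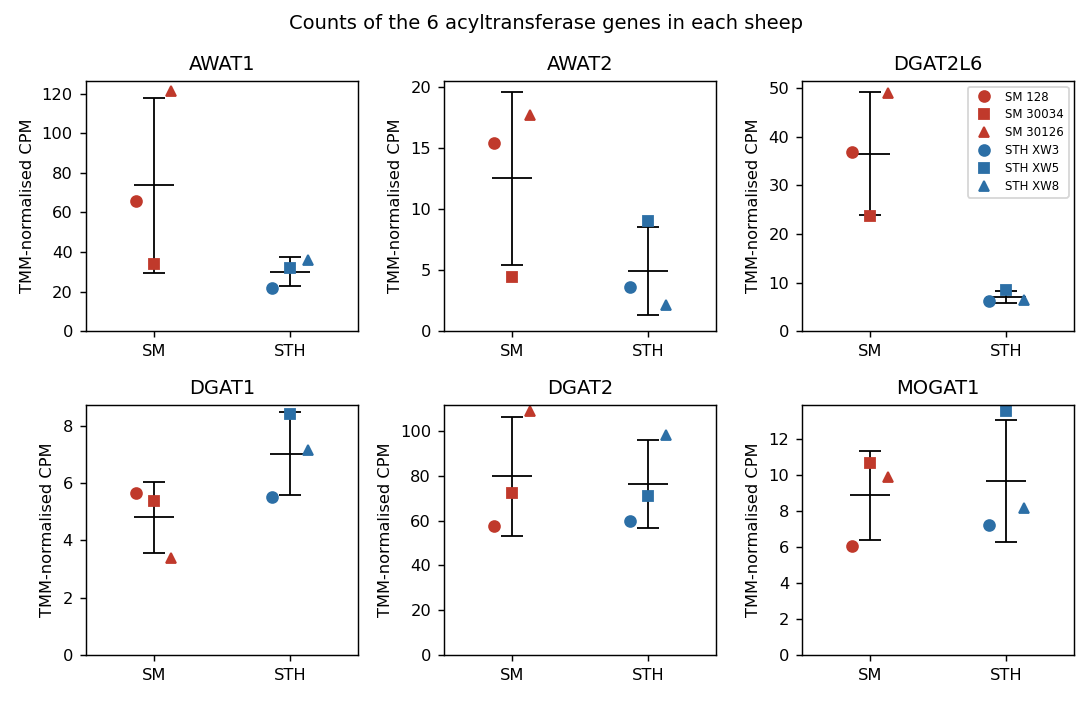
TMM-normalised CPM (y axes, starting at 0) of each acyltransferase gene in the 3 SM and 3 STH sheep, with 1 marker for each sheep and a bar with whiskers for the mean ± SD of each breed. DGAT2L6 is the gene whose SM sheep (23.6 to 49.0 CPM) all lie above its STH sheep (6.19 to 8.43 CPM), while the breeds overlap in the other 5 genes.

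**Figure D2:**
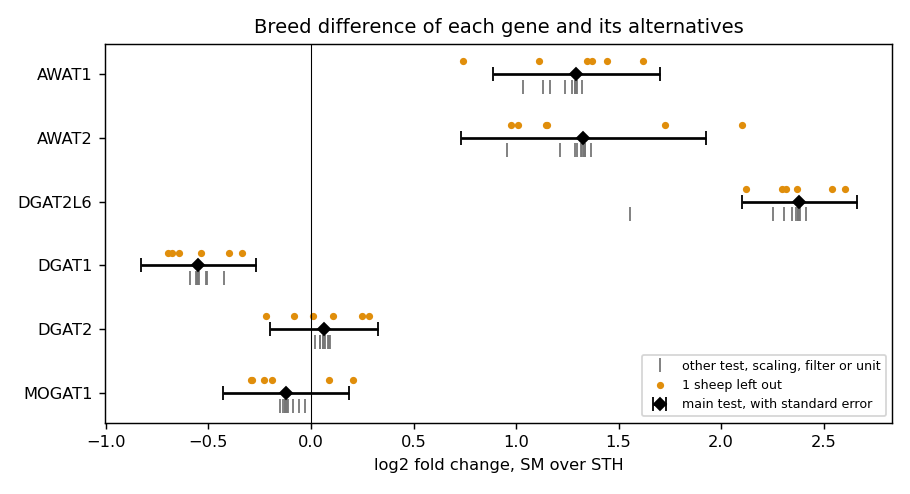
The log2 fold change of each gene (x axis, SM over STH) with its standard error as diamonds and whiskers, the values with 1 sheep left out as dots, and the values under other tests, scalings, filters or the RPKM unit as ticks. DGAT2L6 stays above 1.5 throughout, its lowest value of 1.56 being that of RPKM with a pseudocount of 1, whereas DGAT2 and MOGAT1 cross 0 as sheep are left out.

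Levels of different genes were compared per length, by the RPKM deposited for each sheep, with no test. DGAT2 was the most abundant of the 6 transcripts in every sheep, at 24.1 ± 8.27 RPKM for SM and 22.3 ± 5.46 RPKM for STH (SD, n = 3 for each). AWAT1 followed in SM sheep at 11.1 ± 6.75 RPKM (SD, n = 3), and its range of 5.22 to 18.5 RPKM overlapped with that of DGAT2L6, 3.02 to 6.23 RPKM. DGAT2L6 at 4.59 ± 1.60, AWAT2 at 4.19 ± 2.35 and DGAT1 at 4.09 ± 1.02 RPKM (SD, n = 3 for each) came next, and these 3 did not differ beyond their spread. MOGAT1 was lowest, at 0.988 ± 0.293 RPKM (SD, n = 3).

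In STH sheep the order below DGAT2 was another one. DGAT1 had 5.78 ± 1.09 and AWAT1 4.38 ± 0.992 RPKM (SD, n = 3 for each), and their ranges overlapped. AWAT2 at 1.60 ± 1.14, MOGAT1 at 1.03 ± 0.348 and DGAT2L6 at 0.852 ± 0.140 RPKM (SD, n = 3 for each) were the lowest and overlapped with one another. DGAT2L6 was therefore at the bottom of the order in STH sheep, where it was the lowest of the 6 in XW3 and XW5, and in the middle of it in SM sheep.

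The share of each gene in the summed RPKM of the 6 genes is given as a description. DGAT2L6 held 10.9%, 7.98% and 9.18% of the sum in the SM group against 2.70%, 2.72% and 1.84% in the STH group. AWAT1 held 23.2%, 13.8% and 27.2% against 11.5%, 12.4% and 12.5%, so that the STH sheep were nearly alike. DGAT2 made up 49.4% ± 8.93 of the sum for SM and 61.8% ± 6.58 for STH (SD, n = 3 for each). The 3 X-linked genes together held 46.3%, 25.8% and 45.2% in the SM group and 18.4%, 23.0% and 16.0% in the STH group. SM sheep 30034 was thus nearer to STH sheep XW5 than to the other SM sheep.

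**Figure D3:**
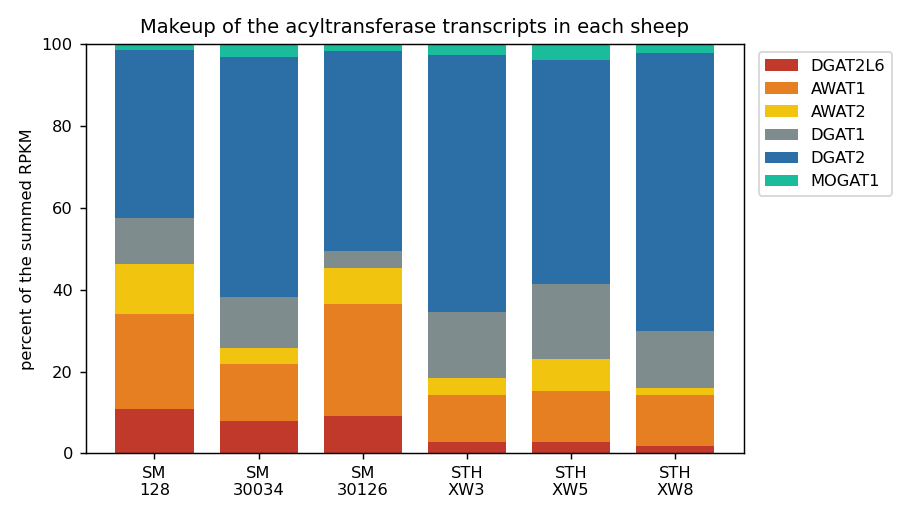
The share of each gene in the summed RPKM of the 6 acyltransferase genes (y axis, percent) in each sheep. The DGAT2L6 segment at the bottom is between 7.98% and 10.9% in SM and between 1.84% and 2.72% in STH sheep, and DGAT2 is the largest segment in all 6 sheep.

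Ratios between genes of the same sheep need no scaling between libraries, and 3 of them were tested by exact permutation, two-sided, where 3 sheep against 3 cannot give a p below 0.1. AWAT1 was above DGAT2L6 per length in all 6 sheep, by 2.13, 1.73 and 2.97 times in the SM group and by 4.25, 4.57 and 6.80 times in the STH group. The difference of the mean log2 ratio, SM minus STH, was -1.20 (exact permutation p = 0.1, adjusted p = 0.15 over 3 ratios), with no overlap of the breeds. DGAT2L6 was between 0.136 and 0.267 times the level of DGAT2 in SM and between 0.0271 and 0.0497 times in STH sheep, a difference of 2.29 in the mean log2 ratio (exact permutation p = 0.1, adjusted p = 0.15), also without overlap. The ratio of AWAT1 to AWAT2 ran from 1.91 to 3.41 in SM and from 1.60 to 7.40 in STH sheep. Its difference of -0.23 was smaller than the spread within the STH sheep (exact permutation p = 0.9, adjusted p = 0.9), and its sign turned without SM sheep 128 or without STH sheep XW8.

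Across the 6 sheep, the log2 CPM of the 3 X-linked genes followed one another, with a Pearson r of 0.85 between AWAT1 and DGAT2L6, 0.79 between AWAT2 and DGAT2L6 and 0.77 between AWAT1 and AWAT2. DGAT1 ran against them, with r between -0.73 and -0.47. These coefficients describe 6 points that share their libraries and fall into the 2 breeds, and no p is given. Of 13847 genes with a mean of at least 1 CPM, the 3 whose log2 CPM was most like that of DGAT2L6 were ACVR1B, an activin receptor (r = 0.997), A3GALT2, a galactosyltransferase (r = 0.996), and WNT2, a WNT ligand (r = 0.995). For AWAT1 they were GATA3, a transcription factor (r = 0.998), TIMP2, an inhibitor of metalloproteinases (r = 0.993), and MED12, a subunit of the mediator complex (r = 0.993). For AWAT2 they were CHD5, LOC105608581 and MAML3, with r between 0.975 and 0.983. The likeness was one of order and spacing and not of size, since the log2 fold change was 0.22 for ACVR1B and 0.16 for GATA3, although it was 1.07 for WNT2. An r of 0.95 was reached by 92 genes with DGAT2L6, 53 with AWAT1, 15 with AWAT2, 405 with DGAT1, 21 with DGAT2 and 4 with MOGAT1. How many unrelated genes would reach it over 6 sheep was not computed. The genes named are the highest of 13847, so a high r is no sign of a link by itself. PARP8, LINS1 and TNFSF15 were most like DGAT1 (r from 0.997 to 0.999), SORCS2, CISH and NCKIPSD most like DGAT2 (r from 0.979 to 0.997), and CX3CR1, LOC101107495 and RBM17 most like MOGAT1 (r from 0.956 to 0.971).

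The genes around the X-linked group had smaller values, with 1 exception in the other direction. IGBP1, which lies between AWAT2 and DGAT2L6 and ends 8348 bases before DGAT2L6, was at -0.03 (standard error 0.13) in log2 fold change. PDZD11, 4509 bases beyond AWAT1, had 0.19 (standard error 0.19), and EDA, the ectodysplasin ligand of follicle development whose end lies 755 bases from AWAT2, had 0.29 (standard error 0.18, edgeR QL adjusted p = 0.391). Within 1000000 bases on either side of the group, there were 18 other tested genes, with a median of 0.10 in log2 fold change and 0.44 as the highest value. That exception was GDPD2, a glycerophosphodiester phosphodiesterase gene named here after its values were seen, at -2.74 (standard error 0.61, edgeR QL adjusted p = 0.200) and between 8 and 90 counts per sheep. The median over the 554 tested genes of the X chromosome was -0.06. Beside the autosomal genes, HSF1 next to DGAT1 had a log2 fold change of 0.23 and SCRT1 on its other side at most 1 count. LOC101110266 and UVRAG beside DGAT2 had -0.13 and 0.08, and FARSB and ACSL3 beside MOGAT1 had 0.04 and -0.44. For ACSL3 the standard error was 0.18 (edgeR QL unadjusted p = 0.0422, adjusted p = 0.270). HSF1 and EDA were higher in every SM sheep, as were 12.3% of the genes tested. ACSL3 was higher in every STH sheep, as were 13.3%.

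**Figure D4:**
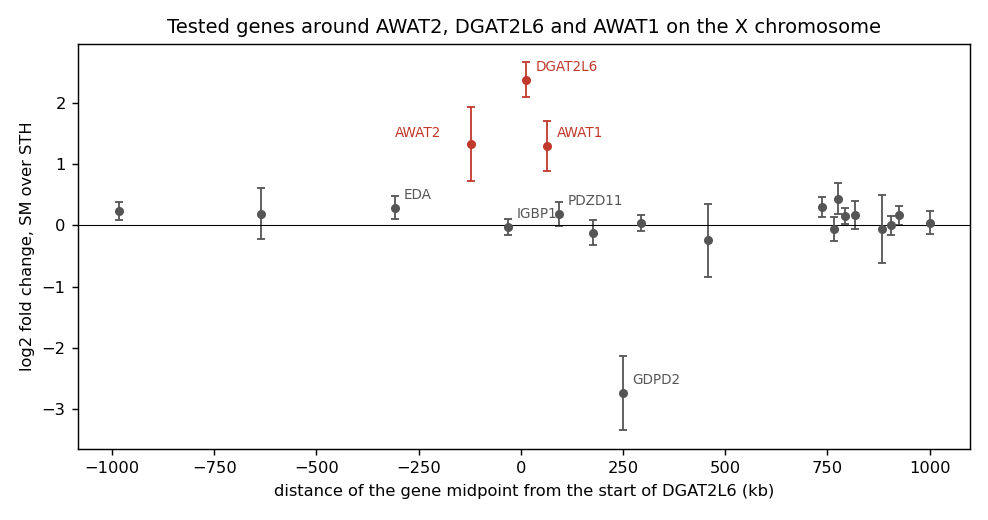
The log2 fold change (y axis, SM over STH, with its standard error) of the tested genes around the X-linked acyltransferases, against the distance of each gene's midpoint from the start of DGAT2L6 in kb (x axis). AWAT2, DGAT2L6 and AWAT1, in red, stand at 1.33, 2.38 and 1.29, the other genes lie at or below 0.44, and GDPD2 is at -2.74.

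Fatty alcohol supply and ester formation, the steps next to the wax synthases, were covered by 11 symbols of which 8 were tested, and none passed. SM was higher for 3 genes and STH for 5, with a median log2 fold change of -0.13 against 0.02 over all genes tested. FAR2, one of the 2 reductases that make fatty alcohols, was abundant at 72.7 RPKM in SM and 52.7 RPKM in STH sheep (log2 fold change 0.42, standard error 0.23), whereas FAR1 had -0.55 (standard error 0.39). LRAT, which esterifies retinol, had 1.15 (standard error 0.24, edgeR QL adjusted p = 0.200) and SOAT1, which makes cholesteryl esters, had 0.75 (standard error 0.31, adjusted p = 0.265). ACBD5, an acyl-CoA binding protein of peroxisomes, had -0.74 (standard error 0.29). LRAT was called by DESeq2, the likelihood ratio test and the exact test.

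The glycerol phosphate route, through which diacylglycerol is made for DGAT1 and DGAT2, had 15 genes, all tested, with a median log2 fold change of 0.06. SM was higher for 10 and STH for 5. With an unadjusted p under 0.05 there were 2, both higher in SM sheep, where 7.21% of all genes were (10.8% in the other direction), namely LPIN3, a phosphatidate phosphatase, at 0.60 (standard error 0.21, edgeR QL adjusted p = 0.252) and AGPAT3, a lysophosphatidate acyltransferase, at 0.54 (standard error 0.20). GPAM, which starts the route, had -0.19 (standard error 0.18).

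Lipid droplet genes were mostly higher in SM sheep, with 11 of 13 tested genes above 0 and a median of 0.42. The 4 with an unadjusted p under 0.05 were all higher in SM sheep, where 7.21% of all genes were, and none passed. PLIN4, a droplet coat protein, had 1.77 (standard error 0.29, edgeR QL adjusted p = 0.159), CIDEA, which fuses droplets, 1.13 (standard error 0.31), and the coat protein PLIN2 0.97 (standard error 0.29). Among the lipases 6 of 9 were higher in SM sheep, with a median of 0.31. MGLL, which cleaves monoacylglycerol, had 0.68 (standard error 0.21), ABHD5, the activator of triglyceride lipase, 0.65 (standard error 0.17) and the lysosomal lipase LIPA 0.36 (standard error 0.14), while lipoprotein lipase, LPL, had -0.97 (standard error 0.38). Of the 91 genes tested in these and the marker lists, PLIN4 was the only one with a log2 fold change above that of AWAT1, and none reached that of DGAT2L6. In the other direction, the marker genes FABP4 (-1.84), KRT10 (-1.34) and DES (-1.32) were farther from 0 than AWAT1. LRAT, PLIN2, PLIN4, CIDEA, DGAT2L6 and AWAT1 were picked as higher in SM sheep by the study from these same libraries, so their direction is not independent evidence.

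Markers of the sebaceous gland were mostly higher in SM sheep too. Of 17 marker genes 16 were tested and 14 were higher in SM sheep, 11 of them with an unadjusted p under 0.05, where 7.21% of all genes were. The median log2 fold change was 0.61. The 3 farthest from 0 among these 11 were ELOVL3, a fatty acid elongase, at 1.06 (standard error 0.26), FA2H, a fatty acid hydroxylase, at 0.99 (standard error 0.23) and KRT79 at 0.98 (standard error 0.18). None passed, with edgeR QL adjusted p between 0.159 and 0.234 for these 3. The study had also picked ELOVL3, FA2H and KRT79 as higher in SM sheep from these same libraries, so their direction is not independent evidence. The summed CPM of the 17 markers was between 3668 and 4997 in SM and between 2296 and 2798 in STH sheep, without overlap, and HAO2 was the one marker at 0 in every sheep.

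Relative to the summed sebaceous markers of the same sheep, a comparison chosen after the values were seen, DGAT2L6 had 10.1, 6.33 and 9.81 CPM per 1000 CPM of markers in the SM group against 2.70, 3.01 and 2.49 in the STH group. The breeds did not overlap, and the ratio of the means was 3.20. On this scale all SM sheep lay over all STH sheep for 0.359% of the genes tested. Relative to ELOVL3 alone the ratio for DGAT2L6 was 2.56 and relative to KRT79 alone 2.63, again without overlap, as was found for 0.0783% and 0.0979% of the genes tested. ELOVL3, KRT79 and the marker sum were each higher in every SM sheep. Dividing by them lowers SM against STH values, so a gap in this direction is rare on these scales. Relative to the summed markers AWAT1 had 17.1 ± 7.61 for SM and 11.7 ± 2.28 for STH (SD, n = 3 for each). AWAT2 had 2.98 ± 1.57 and 1.88 ± 1.21 (SD, n = 3 for each), and in both genes the breeds overlapped. DGAT2 had 15.8, 19.4 and 21.8 for SM against 26.1, 25.3 and 38.4 for STH, so that it was lower in every SM sheep, as were DGAT1 and MOGAT1 (ratios of the means 0.634, 0.447 and 0.580). The same order was found for 64.8% of the genes tested, the marker sum itself being higher in every SM sheep.

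Adipocytes also make triglyceride through DGAT1 and DGAT2, so their markers are given beside these genes. Their summed CPM was between 61.8 and 109 in SM and between 174 and 214 in STH sheep. FABP4 was the largest part of this sum in every sheep, so the sum mainly follows that 1 gene. The next largest, CFD, overlapped between the breeds, with a mean of 24.1 CPM for SM and 20.9 CPM for STH. FABP4, a fatty acid binding protein, was at 27.8 to 62.6 CPM in SM and 128 to 169 CPM in STH sheep, which is -1.84 in log2 with a standard error of 0.31 (edgeR QL adjusted p = 0.159). The median over the 11 tested markers was 0.14, SM being higher for 6 and STH for 5. Per length, FABP4 at 47.7 to 284 RPKM was above DGAT2 at 16.9 to 33.1 RPKM in every sheep, and CFD, the adipocyte serine protease adipsin, was at 8.88 to 16.3 RPKM. ADIPOQ was at 0.0399 to 1.73 RPKM, PLIN1 at 0.163 to 0.392 RPKM, and LEP reached 0.0896 RPKM at most and was not tested. The part of adipocytes in the values of DGAT1 and DGAT2 was not tested.

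Markers of the epidermis and of smooth muscle were mostly higher in STH sheep. Of 9 tested keratinocyte markers 8 were higher in STH sheep, with a median of -0.89, led by KRT10 at -1.34 (standard error 0.29), KRT1 at -1.20 (standard error 0.35) and IVL at -1.05 (standard error 0.20). All 8 tested smooth muscle markers were higher in STH sheep, with a median of -0.68, led by DES at -1.32 (standard error 0.22), MYH11 at -1.05 (standard error 0.13) and SYNPO2 at -0.90 (standard error 0.23). TAGLN at -0.01 (standard error 0.17) and SMTN at -0.12 (standard error 0.13) lay within their standard error of 0. Both lists had 6 genes higher in STH sheep at an unadjusted p under 0.05, where 10.8% of all genes were. STH was higher for 7447 of all 15320 genes tested. The study picked KRT10, KRT1, IVL, DES, MYH11, SYNPO2 and FABP4 as higher in STH sheep from these same libraries, so their direction is not independent evidence. The 7 tested sweat gland markers had a median of 0.09 and none with an unadjusted p under 0.05. Summed CPM of keratinocyte markers was between 8207 and 9424 in SM and between 9827 and 16154 in STH sheep, that of smooth muscle markers between 1279 and 1475 and between 1989 and 2485, and that of sweat gland markers between 360 and 469 and between 349 and 402. KRT5 was the largest part of the keratinocyte sum in every sheep, and it overlapped between the breeds (log2 fold change -0.38, standard error 0.19). The part of these differences in the values of the acyltransferases was not tested.

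**Figure D5:**
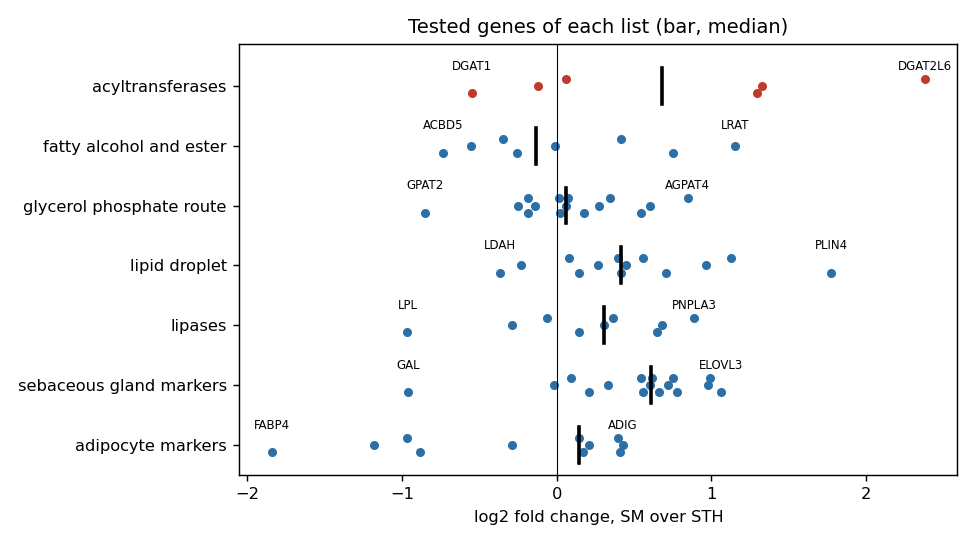
The log2 fold change (x axis, SM over STH) of every tested gene in the acyltransferase group and in 6 lists of lipid genes and cell markers (y axis), with 1 dot for each gene, a bar for the median of each list and the lowest and highest gene named. The acyltransferases spread from -0.55 to 2.38, wider to the right than any other list, and the sebaceous gland markers have the median of 0.61 nearest to theirs of 0.68.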

How the data were processed

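The authors mapped the reads of 1 paired-end library per sheep to the Oar_v4.0 assembly in CLC Genomics Workbench after checking them with FastQC, and deposited the values of each library without pooling. The total count of each gene was deposited by the authors as a whole number without normalization. The RPKM deposited by the authors scales the counts to exon length and to the counted fragments of the library, and although 4291 genes without any count carry a positive RPKM, no acyltransferase is among them. The TPM deposited by the authors is the RPKM rescaled to a common sum, and the score deposited as CPM is the count over an effective library size. Neither was used. The study lists its counted fragments as uniquely and non-specifically mapped ones, the former split into exonic, intronic and intergenic, but which of these classes enter the total count is not given in the sources used here. The library kit is not stated to mark strand. Exon lengths were derived from the ratio of count to RPKM, with the number of fragments set by genes whose exons fill their whole span.

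The 15320 genes that reached 10 counts in 3 or more sheep were tested in edgeR 4.0.16 (R 4.3.3) by TMM normalization and the quasi-likelihood test with breed as the only term and Benjamini-Hochberg adjustment. The standard error is the log2 fold change over the square root of F. Replicates are separate animals. The members and lists were chosen with earlier results of these data known. Genes named are all members, up to 3 genes in each direction with the largest log2 fold change among those at an unadjusted p under 0.05 in each list, the 3 genes most correlated with each member, and the nearest counted genes on the chromosome. FAR1, FAR2, GPAM, ADIPOQ, PLIN1, LEP, CFD, HAO2, KRT5, TAGLN, SMTN and GDPD2 were added to these after the values were seen. Older and newer symbols of the same gene were both searched for. Alternatives were DESeq2 1.42.0, limma 3.58.1 (voom, and a trend fit on log2(RPKM + 0.1) or log2(RPKM + 1) for genes reaching 0.1 RPKM in 3 or more sheep, which understates changes of low genes), edgeR's likelihood ratio and exact tests and newer dispersion estimate, other scalings and filters, and each sheep left out. Exact permutation tests used scipy 1.17.1. Each test method and the trend fit on log2(RPKM + 0.1) were run on simulated data. The other scalings and filters, the pseudocount of 1 and the fits with a sheep left out were not. The RPKM levels of single sheep were not rescaled. Chromosome numbers were read from a RefSeq gene table of another assembly, ARS-UI_Ramb_v3.0, which matched 21630 of the 28394 gene identifiers and whose coordinates were not used.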

Additional observations from a re-analysis of the deposited data

How the results depend on the processing

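DGAT2L6 kept its direction in every test, scaling, filter and left-out sheep, with log2 fold changes from 1.56 to 2.41 over the 12 alternatives on 6 sheep and from 2.12 to 2.60 with 1 sheep left out. It passed both thresholds with DESeq2 (2.38), the likelihood ratio test (2.38), the exact test (2.38) and without a count filter (2.38, edgeR QL adjusted p = 0.0489), and also without SM sheep 128 or without SM sheep 30034. AWAT1 passed with DESeq2 (1.29), and ran from 0.74 to 1.62 as sheep were left out. AWAT2 ran from 0.98 to 2.10 and DGAT1 from -0.70 to -0.34 as sheep were left out, and neither passed in any alternative. DGAT2 ran from -0.22 to 0.28 and MOGAT1 from -0.29 to 0.20, and both changed sign in 2 of the 6 fits with a sheep left out, DGAT2 also to -0.08 and MOGAT1 also to 0.09. Differences of the log2 ratios, left-out sheep added after seeing the data, ran from -1.41 to -0.99 for AWAT1 to DGAT2L6, from 2.04 to 2.53 for DGAT2L6 to DGAT2, and from -0.72 to 0.38 for AWAT1 to AWAT2, whose sign was also positive without SM sheep 128, at 0.03. The cause of these changes was not tested.

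The count of genes past both thresholds, 0 with the quasi-likelihood test, was 443 with DESeq2, 352 with the likelihood ratio test, 332 with the exact test, 2 with the newer dispersion estimate, 2 without a filter, 2 with RPKM and a pseudocount of 0.1, 3 with a pseudocount of 1, and 2762 at an unadjusted p under 0.05 with no fold threshold. As sheep were left out it ran from 0 to 1175, the highest without SM sheep 128. DESeq2, the likelihood ratio test and the exact test thus called 443, 352 and 332 of all 15320 genes tested. In that order, they called 1, 1 and 1 of 8 tested fatty alcohol and ester genes. For lipid droplet genes it was 4, 3 and 3 of 13, and for lipases 1, 0 and 0 of 9. Sebaceous gland markers had 3, 3 and 3 of 16 called, and adipocyte markers 1, 1 and 1 of 11. Keratinocyte markers had 4, 4 and 4 of 9, and smooth muscle markers 5, 5 and 5 of 8. As sheep were left out the calls in these lists, in the same order, ran from 0 to 3, 0 to 3, 0 to 0, 0 to 4, 0 to 1, 0 to 4 and 0 to 4. The fit without SM sheep 128, which called 1175 genes, gave each of the upper values. No paired analysis was possible because the sheep labels are those of individual animals and share no replicate numbers between the breeds.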
